A study of Rattus norvegicus with 3 samples.

Results

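A group of 6 genes that are widely used to tell inhibitory neurons apart was followed in 3 somata (cell bodies) of rat hippocampal neurons: Gad1 and Gad2, which encode the enzymes that make GABA, Pvalb, Calb1 and Calb2, which encode the calcium buffers parvalbumin, calbindin and calretinin, and Reln, which encodes the secreted protein reelin. The members were every probe set whose only gene symbol in the platform annotation was one of these names. They came to 8 probe sets for 6 genes, out of 31099 probe sets on the array and 20832 that carried 1 symbol. Gad1 and Reln had 2 probe sets each and the other genes 1. The question was whether the 6 genes varied together over the somata.

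The series held 1 group of 3 Affymetrix arrays. Each array carried amplified RNA of 1 soma, drawn by glass pipette from a neuron that the labels call pyramidal, in a dispersed hippocampal culture from Sprague-Dawley rats at embryonic day 19 that had grown for 14 days without treatment. Cells 1, 2 and 3 are the somata with those replicate numbers in the labels. The labels name no animal or dish, no soma was measured on a repeat array, and there was no second group, so a difference between cells is a description of these somata and has no p-value. The published methods describe dendrites and tissues, not the somata.

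GABA is the main inhibitory transmitter of the forebrain. It is made from glutamate by glutamate decarboxylase, of which neurons hold the forms GAD67 (Gad1, in the cell body and elsewhere, for much of the basal supply) and GAD65 (Gad2, concentrated at nerve terminals). Calcium buffers of the EF-hand family shape the calcium signal after a spike and divide interneurons into types: parvalbumin marks fast-spiking basket and chandelier cells, and calretinin marks several dendrite-targeting and interneuron-targeting cells. Calbindin is less specific, since dentate granule cells and some CA1 pyramidal cells also make it. Reelin guides neuronal migration and later tunes synapses. It is secreted by Cajal-Retzius cells, which also contain calretinin, and by a share of adult interneurons.

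Array values are log2 intensities as deposited, and a percentile is the rank of a gene among the 14218 genes of the same array. The 3 array medians were 7.23, 7.16 and 7.09. Background, the 95th percentile of 165 genes taken as silent in neurons, lay at 9.73, 10.02 and 9.38 in cells 1, 2 and 3, and 7.04%, 5.72% and 11.3% of all genes exceeded it. Low values were coarse: in cell 3 the deposited value of each member probe set other than the one of Calb2 was shared by 106 to 191 probe sets. Control probe sets at the 3' end of Gapdh read higher than those at its 5' end by 0.20 log2 in cell 1, 3.06 in cell 2 and 2.93 in cell 3. The same measure for the beta-actin control was 0.32, 2.07 and 1.71, and for the hexokinase control -2.40, 1.79 and -0.18. The hexokinase readings at both ends were under background in every cell. Those of beta-actin were too, except at the 3' end in cell 3, where the reading barely passed it. The part of these differences in the results was not tested.

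Of the 18 gene readings of the members, 16 were not above background, all but those of Calb2 in cells 1 and 3. An order of cells or a log2 difference given for such readings describes the deposited values and is no measure of how much RNA differed, so no fold is given for them.

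**Figure D1:**
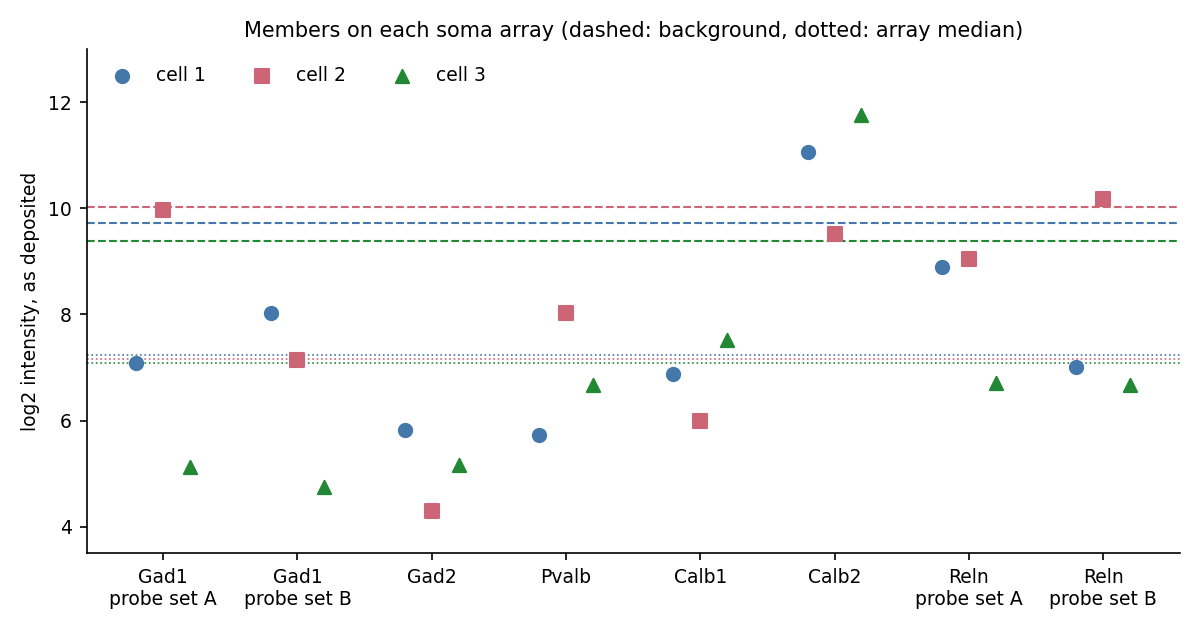
Log2 intensity as deposited (vertical axis) of the 8 member probe sets (horizontal axis), where circles stand for cell 1, squares for cell 2 and triangles for cell 3, with the background of each array as a dashed line and its median as a dotted line in the colour of the cell. Calb2 in cells 1 and 3 and Reln probe set B in cell 2 were above the background of their array.

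Neither GABA-synthesising enzyme was above background in any cell as a gene value. Gad1 has probe sets 1368344_at, called A, and 1370760_a_at, called B. Probe set A read 7.09 log2 in cell 1, 9.96 in cell 2 and 5.12 in cell 3, and probe set B read 8.02, 7.15 and 4.75. Cell 3 was the lowest for both, whereas A was highest in cell 2 and B in cell 1. The reading of A in cell 2 came within 0.0638 log2 of the background of that array without passing it. As the median of its probe sets, Gad1 stood at percentiles of 58.5, 80.3 and 5.26. After quantile normalisation the reading in cell 2 was 3.51 log2 over that in cell 3 and 1.06 log2 over that in cell 1, and the reading in cell 1 was 2.45 log2 over that in cell 3. Cells 1 and 2 differed in opposite directions in the probe sets: A read 2.96 log2 higher in cell 2, and B read 0.83 log2 higher in cell 1. Among all genes, 17% were lower in cell 3 than in cell 2 by at least 1 log2 (2-fold), and 21.9% were lower in cell 3 than in cell 1.

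Gad2 read near the bottom of every array, at 5.83, 4.30 and 5.16 log2 in cells 1, 2 and 3 (percentiles 14.1, 0.644 and 7.48). Its probe set lay 3.90, 5.72 and 4.22 log2 under background, with the lowest reading in cell 2. Cell 1 exceeded cell 2 by 1.39 log2 and cell 3 exceeded cell 2 by 0.97 log2. Of all genes, 21.8% were lower in cell 2 than in cell 1 by 1 log2 or more.

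Among the calcium buffers, Calb2 stood apart by its level. The calretinin gene Calb2 read 11.06, 9.51 and 11.76 log2 in cells 1, 2 and 3 (percentiles 98.3, 91.0 and 99.1). It was above background in cells 1 and 3 and was 0.516 log2 short of it in cell 2. Calb2 gave both of the readings that passed background among the 18 readings of the 6 genes, where 8.02% of the readings of all genes passed. After quantile normalisation the readings of cells 3 and 1 were 2.10 and 1.69 log2 over that of cell 2, which was itself not above background, whereas cells 1 and 3 were 0.41 log2 apart.

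Calbindin (Calb1) read 6.88, 6.00 and 7.52 log2 in cells 1, 2 and 3 (percentiles 38.5, 19.4 and 58.7), in the same order of cells as Calb2 but near the middle of the arrays. The reading in cell 3 was 1.54 log2 over that in cell 2, and the other differences were 0.78 and 0.76 log2. By at least 1 log2, 19.4% of all genes were higher in cell 3 than in cell 2. Parvalbumin (Pvalb) read 5.72, 8.03 and 6.68 log2 (percentiles 12.5, 70.1 and 36.7), highest in cell 2 and lowest in cell 1. The reading in cell 2 was 2.44 log2 over that in cell 1 and 1.26 log2 over that in cell 3, and 24.9% of all genes were higher in cell 2 than in cell 1 by that rule. Neither Calb1 nor Pvalb was above background in any cell: Calb1 lay 1.86 to 4.03 log2 under it and Pvalb 1.99 to 4.01 log2 under it.

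Reln had the order of cells of Gad1 as a gene value, and neither was above background in any cell as a gene value. Its probe set 1369093_at, called A, read 8.90, 9.05 and 6.70 log2 in cells 1, 2 and 3, and probe set 1373957_at, called B, read 7.02, 10.18 and 6.68. The order of the cells was the same for both, with cell 3 lowest and cell 2 highest, but A hardly separated cells 1 and 2 (0.12 log2) and B hardly separated cells 1 and 3 (0.17 log2). Probe set B in cell 2 was the only reading outside Calb2 above background among the 24 probe set readings, by 0.152 log2. Of all named probe sets, 8.82%, 7.69% and 13.4% were above background in cells 1, 2 and 3. The value of probe set B in cell 3 equalled that of Pvalb to the last digit, as 178 probe sets shared it. As a gene Reln stood at percentiles of 68.9, 91.8 and 37.1, and its reading in cell 2 was 2.84 log2 over that in cell 3 and 1.68 log2 over that in cell 1. The gap between cells 2 and 1 came from probe set B.

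No shared order of the cells was seen over the 6 genes, but with 16 of 18 readings not above background these data cannot show whether the genes vary together. The order of cells is also a weak measure on these arrays: among the 3060 genes with exactly 2 probe sets, 19.4% had both probe sets in the same order, against 17.4% of all pairs of named probe sets. Gad1, Reln and Pvalb were highest in cell 2, which held the highest value of 31.1% of all genes. All 3 exceeded both other cells there by at least 1 log2, as 8.39% of all genes did. Gad2, Calb1 and Calb2 were lowest in cell 2, which held the lowest value of 29.2% of all genes. Calb2 was lower there than in both other cells by at least 1 log2, as were 6.39% of all genes. Gad1 and Reln were lower in cell 3 than in both other cells by that size, as were 7.6% of all genes. Of the 15 pairs of members, 2 put the 3 cells in the same order, namely Gad1 with Reln and Calb1 with Calb2. These were 13.3% of the pairs, where 17.4% of all pairs of genes on the arrays shared an order. The match with Reln holds for Gad1 probe set A and not for B. Another 5 pairs had exactly opposite orders: Gad1 with Calb1 and with Calb2, Reln with Calb1 and with Calb2, and Gad2 with Pvalb.

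The signs of the differences, from the same readings, are no separate line of evidence. Over the 3 pairs of cells the 15 pairs of members allowed 45 comparisons of sign, of which 18 matched (40%), against 50.4% over all pairs of genes. In 23 of the 45 both members differed by at least 1 log2, and these differences ran the same way in 9 (39.1%, against 50.5% over all pairs of genes) and in opposite ways in 14. Given which members passed 1 log2 in each pair of cells, 9 is likewise the fewest possible. Gad1 and Reln ran the same way by that size in all 3 pairs of cells as gene medians, but no single Reln probe set passed 1 log2 in all 3 pairs, and Gad1 probe set B had the opposite sign between cells 1 and 2. With the brightest probe set of Reln its difference between cells 1 and 2 was 0.12 log2. Gad1 and Gad2, which catalyse the same reaction, both passed 1 log2 in 1 pair of cells, cells 1 and 2, and there they ran in opposite directions as gene values. For Gad1 that difference was 0.999 log2 on deposited values, and its probe set B ran the way of Gad2. These 3 cells are too few for a correlation, and these counts are given without a test.

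**Figure D2:**
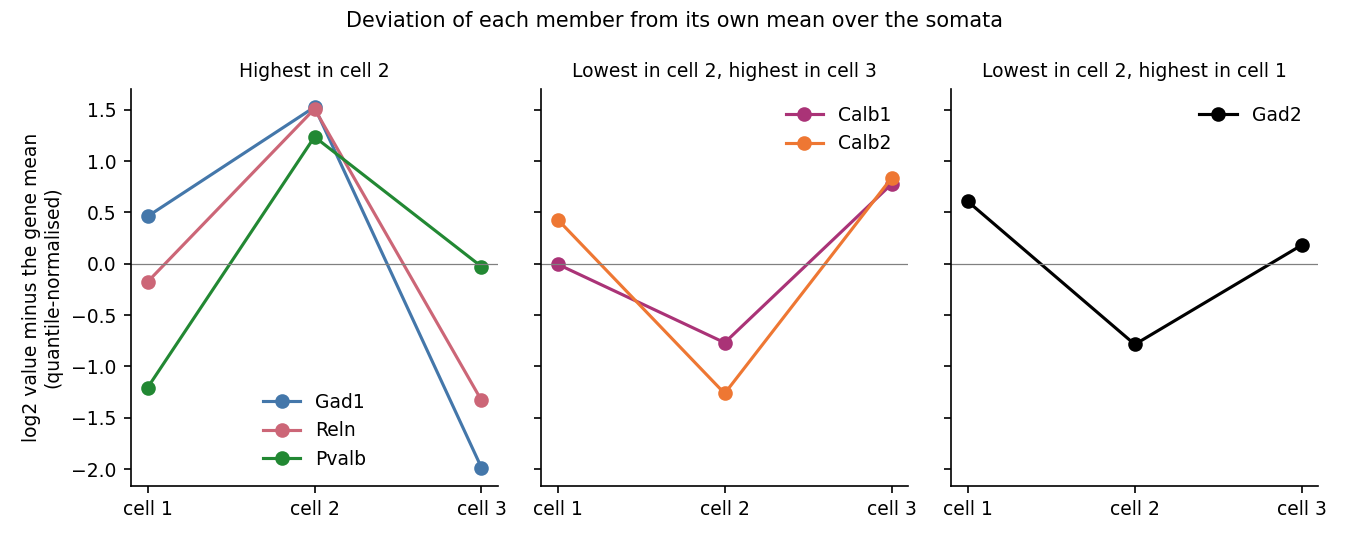
Quantile-normalised log2 value of each member minus its own mean over the 3 somata (vertical axis) by cell (horizontal axis), with Gad1, Reln and Pvalb on the left, Calb1 and Calb2 in the middle and Gad2 on the right. The left genes peak in cell 2 and the others have their minimum there.

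Of the 6 members, 5 had a larger SD over the somata than the median gene, the exception being Gad2. Against genes of the same level the exception was Calb1. Each differed by at least 1 log2 between some pair of cells, which 71% of all genes also did. Of their 18 differences between cells, 13 reached 1 log2 (72.2%), against 44.5% of the differences of all genes (46.6% for cell 2 against cell 1, 50.4% for cell 3 against cell 1 and 36.3% for cell 3 against cell 2). The SD over the 3 cells was 1.80 log2 for Gad1, 1.43 for Reln, 1.22 for Pvalb, 1.11 for Calb2, 0.77 for Calb1 and 0.71 for Gad2. The median over all genes was 0.77. Among the genes in the same decile of mean level, 91.5% had a smaller SD than Gad1 and 79.8% a smaller SD than Reln, while 63.6% had a smaller SD than Gad2 and 47.8% a smaller SD than Calb1. Mean percentiles over the cells were 96.1 ± 4.46 (SD, n = 3 cells) for Calb2, 65.9 ± 27.5 for Reln, 48.0 ± 38.6 for Gad1, 39.8 ± 28.9 for Pvalb, 38.9 ± 19.6 for Calb1 and 7.42 ± 6.74 for Gad2. From Reln down to Calb1, neighbours in this order lay within their spread, and the order reflects probe brightness as well as RNA.

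**Figure D3:**
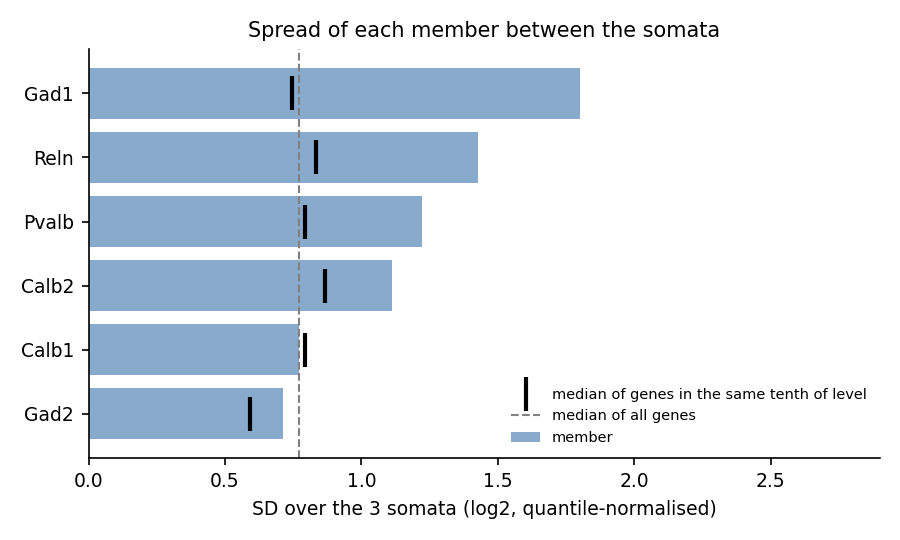
SD over the 3 somata in log2 units (horizontal axis) of each member (bars), with the median SD of the genes in the same decile of mean level (black marks) and of all genes (dashed line). Gad1, Reln, Pvalb and Calb2 extend past both references, and Calb1 does not pass that of its own decile.

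The Reln probe sets shared an order of cells and the Gad1 probe sets did not. Taken as 28 pairs of probe sets, 4 pairs of the members (14.3%) shared an order, compared with 17.4% of all pairs of named probe sets.

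Genes that load, recycle and break down GABA were taken as the pathway of Gad1 and Gad2. Of 23 listed symbols 18 were measured, the 2 enzymes included, and 17 of these (94.4%) differed by at least 1 log2 between some pair of cells, as 71% of all genes did. The median percentile of the list was 63.8, 56.9 and 51.5 in cells 1, 2 and 3. The vesicular GABA transporter Slc32a1, a defining gene of inhibitory terminals, had the order of Gad1 and Reln as gene values. Its percentiles were 27.8, 55.9 and 14.0, with cell 2 above cell 3 by 1.72 log2. So ordered were glutamine synthetase, Glul (47.5, 63.9 and 23.9), and the monoamine oxidase Maob (83.9, 87.6 and 59.1). None of the 3 was above background in any cell. With Gad1 itself, 4 of the 18 genes had this order, as did 11.5% of all genes, and Gad1 probe set B did not have it. Among plasma membrane GABA transporters the orders were others: Slc6a11 stood at 80.8, 19.4 and 14.6 and Slc6a13 at 65.3, 31.7 and 57.8.

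Enzymes that degrade GABA ran in different directions. GABA transaminase (Abat) stood at 68.8, 56.8 and 83.1 in cells 1, 2 and 3, in the order of the calbindins, and succinic semialdehyde dehydrogenase (Aldh5a1) at 66.1, 47.0 and 35.4. Aldh9a1, which can make GABA by another route, stood at 16.7, 63.2 and 71.7. Carriers and enzymes of the glutamine and glutamate supply were likewise split. Slc38a2 (95.2, 57.1 and 51.5), Slc38a3 (95.3, 39.7 and 31.3) and the glutaminase Gls2 (84.0, 58.9 and 51.5) were highest in cell 1. Slc38a1 (32.6, 83.7 and 57.4) was highest in cell 2, and the glutamate carrier Slc1a1 (47.0, 62.5 and 80.5) and the aspartate transaminases Got2 (78.8, 89.7 and 94.2) and Got1 (30.0, 11.3 and 36.0) in cell 3. Glud1 was the gene of the list that stayed within 1 log2. Above background were 2, 0 and 1 of the 18 genes in cells 1, 2 and 3, where 7.04%, 5.72% and 11.3% of all genes were. These were Slc38a2 and Slc38a3 in cell 1 and Got2 in cell 3. No other reading of the list was above background, so the orders given here describe the deposited values alone.

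**Figure D4:**
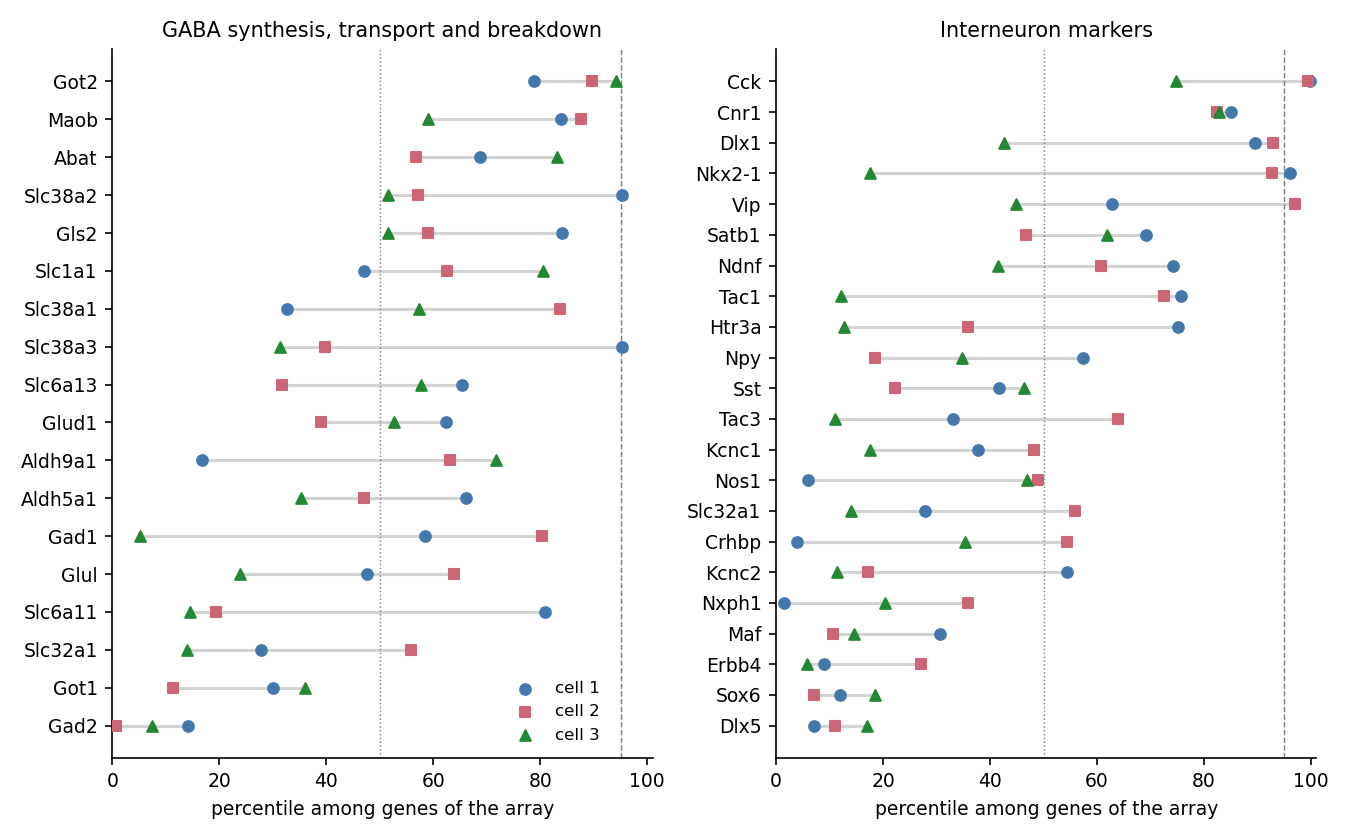
Percentile among the genes of the same array (horizontal axis) of the measured genes of GABA synthesis, transport and breakdown (left) and of the interneuron markers (right), where circles stand for cell 1, squares for cell 2 and triangles for cell 3, with dotted lines at 50 and dashed lines at 95. Cell 3 at the left and cell 2 at the right end, the order of Gad1, held for 4 of 18 genes in the left panel and 6 of 22 in the right. Of all genes 11.5% had it. Gad2, Sst and Npy were among the genes with cell 2 at the left end.

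Other interneuron markers also read lower in cell 3 on balance. The median percentile of the 22 measured markers, members not counted, was 48.1, 48.6 and 19.4 in cells 1, 2 and 3. The log2 of their summed intensity was 13.86, 13.74 and 12.22. Against cell 2, cell 3 was lower by at least 1 log2 in 10 markers and higher in none, where 17% of all genes were lower and 19.4% higher. The 10 were Slc32a1, Dlx1, Nkx2-1, Vip, Cck, Htr3a, Erbb4, Tac1, Tac3 and Kcnc1. Above background were 2, 2 and 0 of the 22 markers in cells 1, 2 and 3, where 7.04%, 5.72% and 11.3% of all genes were. Of the 10, only Vip and Cck passed it in cell 2, and none did in cell 3. The differences of the others describe the deposited values alone. The homeobox factor Dlx1, which specifies interneurons, stood at 89.4, 92.8 and 42.6, and the peptide gene Vip at 62.7, 97.0 and 44.8. The peptide genes Sst (41.7, 22.2 and 46.3) and Npy (57.3, 18.4 and 34.7) had their minimum in cell 2, as did Gad2, Calb1 and Calb2. Cck, Cnr1 and Dlx1 led the list, and Sox6 and Dlx5 closed it. Dlx2 and Lhx6 had no single-symbol probe set here.

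Markers of excitatory neurons ran the other way on balance in the same comparison. Of 26 measured markers, 10 were higher in cell 3 than in cell 2 by at least 1 log2 and 2 were lower, where 19.4% and 17% of all genes were. Above background were 2, 2 and 8 of the 26 in cells 1, 2 and 3, where 7.04%, 5.72% and 11.3% of all genes were. Of the 10, only Slc17a6, Neurod6, Camk2b, Bhlhe22 and Nptx1 passed it in cell 3, and none did in cell 2. The differences of the others and of the 2 lower genes describe the deposited values alone. Their median percentile was 53.9, 41.9 and 78.2 in cells 1, 2 and 3, and the log2 of their summed intensity was 14.22, 14.83 and 15.32. The factor Neurod2 stood at 99.9 in every cell, and Nrgn and Nptx1 came next, with Mef2c and Tbr1 last. Neurod6 stood at 54.4, 71.6 and 96.5 and the vesicular glutamate transporter Slc17a6 at 14.1, 29.0 and 94.7, whereas Slc17a7, its counterpart in mature pyramidal cells, stayed at 55.3, 51.2 and 51.2. Of the 26 markers, 14 were highest in cell 3, 7 in cell 1 and 5 in cell 2, where 37.4%, 31.6% and 31.1% of all genes were. Bcl11b (65.4, 74.4 and 23.2), Lmo3, Epha7, Mef2c and Spink8 were lowest in cell 3. The type of neuron of each soma and the part of cell identity in the pattern of the members were not tested.

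Other cell types also make calretinin, calbindin or reelin, and their markers were examined next. Of 6 measured Cajal-Retzius markers none was above background in cells 1 and 2 and 1 was in cell 3. Their median percentiles were 73.7, 28.5 and 39.1, led by Car10, Ndnf and Lhx1, with Ebf2 and Lhx5 last. None of the 6 had the order of Gad1 and Reln, as 11.5% of all genes did, or of Calb1 and Calb2, as 13.9% did. With 6 genes this count is too small to set apart from these shares. Of 11 measured dentate granule and mossy cell markers 0, 1 and 1 were above background, with medians of 34.9, 45.8 and 42.2, led by Drd2, Fam163b and Prox1, with Calcrl and Lef1 last. Among these, Tdo2, Calcrl and Ajap1 had the order of Gad1 and Reln, and Lef1 and Csf2rb that of Calb1 and Calb2. The same shares of all genes, 11.5% and 13.9%, stand beside them. Markers of non-neuronal cells passed background in 1, 0 and 1 of 18 astrocyte genes, 1, 1 and 0 of 17 oligodendrocyte genes, 4, 0 and 0 of 16 microglial genes and 1, 2 and 2 of 20 vascular genes in cells 1, 2 and 3, where 7.04%, 5.72% and 11.3% of all genes did. The 4 microglial genes in cell 1 were the count that lay furthest above these shares.

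Reelin acts on receiving cells through the receptors Vldlr and Lrp8 and the adaptor Dab1. Vldlr stood at percentiles of 21.8, 89.3 and 58.4 in cells 1, 2 and 3, highest in cell 2 like Reln, and cell 2 exceeded cell 1 by 3.17 log2. Lrp8 stood at 59.1, 78.2 and 89.0, and Dab1 at 87.4, 49.2 and 34.5. The readings of the ligand, its receptors and the adaptor thus had 4 different orders of the cells. Only the reading of Lrp8 in cell 3 was above background among them. Of 34 measured receptors and partners, 27 (79.4%) differed by at least 1 log2 between some pair of cells, beside 71% of all genes. Above background were 0, 3 and 6 of the 34 in cells 1, 2 and 3, where 7.04%, 5.72% and 11.3% of all genes were. The order of Reln was that of Cul5, Cdk5 and Cdk5r2, 3 of the 34 genes, and of 11.5% of all genes.

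Readings of the reelin list passed 1 log2 most often between cells 1 and 3, as those of all genes did (50.4%). Of the 34, 17 were higher in cell 3 than in cell 1 by at least 1 log2 and 5 were lower, where 28.5% and 21.9% of all genes were. Besides the receptors, the former were Rap1a, Rap1b, Pafah1b1, Pafah1b2, Itga3, Stk25, Socs7, Limk1, Ndel1, Dcx, Efnb3, Nrp1, Furin, Pcsk6 and Apoe. The latter were Dab1, Cdk5, Itgb1, Cul5 and the protease Plat. None of the 34 was above background in cell 1, and the 6 above it in cell 3 were Lrp8, Itga3, Ndel1, Dcx, Efnb3 and Nrp1. The differences of the others between these cells describe the deposited values alone. Fyn, Src, Crkl, Rapgef1 and Cdk5r2 differed by that size in other pairs of cells. Efnb3, Dcx and Adamts4 had the highest mean percentiles and Pafah1b3 and Adamts5 the lowest.

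Other calcium sensors and buffers with EF-hands were taken as the family of the buffers. Of 43 measured genes, 35 (81.4%) differed by at least 1 log2 between some pair of cells, beside 71% of all genes, and their median percentile was 54.7, 46.3 and 48.9 in cells 1, 2 and 3. Calmodulin 2 (Calm2) stood at 95.3, 93.3 and 97.7 and neurocalcin (Ncald) at 86.6, 76.0 and 94.2. Both had the order of Calb1 and Calb2, as did 13.9% of all genes. Kcnip3 led the list at 97.7, 97.6 and 95.3, and Hpcal4 and S100a6 (6.81, 7.27 and 5.44) closed it. Cell 3 exceeded cell 2 by at least 1 log2 in 14 of the 43 genes and was lower in 8, where 19.4% of all genes were higher and 17% lower.

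Genes nearest to each member in percentile were found by the root mean square difference over the 3 cells. The nearest were Aldh7a1 and Sp2 for Gad1 (2.71 and 3.69 percentile points), Ube2h and Dkk2 for Gad2 (0.684 and 0.885), and Adamts7 and Cog2 for Pvalb (2.21 and 2.62). They were Meig1 and Dsg2 for Calb1 (0.830 and 1.63), Atp5pd and Grcc10 for Calb2 (0.731 and 0.750), and Btbd8 and Rig1 for Reln (1.89 and 2.68). Within 5 points lay 3 genes for Gad1 and 10 for Reln, but 293 for Calb2 and 117 for Gad2, whose percentiles lay close to an end of the scale.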

How the data were processed

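The authors deposited 1 log2 intensity per probe set and array. The labels name RMA 2.0. The methods of the study describe an upper-decile summary of probes, stated for dendrite arrays, followed by centring on the median and scaling of each array, which the deposited log2 values do not show. Single-symbol probe sets (20832) gave 14218 genes by their median, and 436 probe sets with several symbols were left out of genes. All 8 member probe sets kept their symbol in the RefSeq table of GRCr8.

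Percentiles were computed within each array. Differences and SDs were taken after quantile normalisation over all 31099 probe sets, because the arrays lay up to 0.426 log2 apart at the same rank, and were called at 1 log2. Background was the 95th percentile of 165 silent genes (41 olfactory, vomeronasal and taste receptors and 124 genes of other organs). The number of arrays limits the precision. The steps were run on simulated arrays that differed by small noise, rescaling and planted shifts. The somata differed far more, so that run checked the code and not how the calls or orders perform on these data. Python 3.11.15, numpy 2.4.6, pandas 2.3.3 and scipy 1.17.1 were used.

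The members and gene lists were chosen with earlier results of these data known. Named were all members, fixed defining markers, the 3 highest and 2 lowest genes of each list by mean percentile (for glial and vascular lists the counts alone are given), genes of the GABA and reelin lists past 1 log2, and the 2 genes nearest to each member. Alternatives were the brightest probe set per gene, no ambiguous probe sets, other scalings, backgrounds, call sizes and ranks, and leaving out each cell.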

Additional observations from a re-analysis of the deposited data

How the results depend on the processing

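With 3 arrays, 1 per soma, no value here has a test, and all 13 member differences past 1 log2 kept their sign under the 4 alternatives that recompute them. Of these 52 values 3 were under 1 log2: Gad1 in cell 2 over cell 1 with deposited values (0.999), Pvalb in cell 3 over cell 1 with deposited values (0.956), and Reln in cell 2 over cell 1 with the brightest probe set (0.117). The kept signs say little for the choice of probe sets, since members with 1 probe set could not change there. For Gad1 both such alternatives took probe set A. Its probe set B was not among the 52 values and had the opposite sign for cell 2 minus cell 1 (-0.83 log2). The count of pairs in the same order was 2 with the brightest probe set, without ambiguous probe sets and with both other scalings. With 2 cells in place of 3, 6 pairs agreed whichever cell was left out. This is the fewest that 6 genes can give with 2 cells, and it cannot be set against the 2 pairs for 3 cells. Between 3 and 5 of 6 differences then reached 1 log2, and 1 to 2 readings passed background. The median SD of the members was 0.682 to 1.32 log2, lowest without cell 2, against 1.17 with all cells. Above background was 1 reading (Calb2 in cell 3) at the 99th percentile of the silent genes, and 4 (Calb2 in each cell and Reln in cell 2) with receptor genes alone as silent. Requiring 2 log2 left 5 of the 18 member differences. With the brightest probe set the mean percentile was 50.8 for the GABA list (57.4 otherwise), 59.2 for the reelin list (51.7) and 52.2 for neuropeptides (60.0), and the cause was not tested. No paired analysis was possible because the series holds 1 group.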

Other observations

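Receptor subunits that bind GABA were described in the same way. Of 16 measured GABA-A receptor subunits, 14 (87.5%) differed by at least 1 log2 between some pair of cells, beside 71% of all genes, and the median percentile was 71.1, 49.1 and 45.9 in cells 1, 2 and 3. Gabra5, a subunit abundant in hippocampal pyramidal cells, stood at 96.2, 97.4 and 99.8, Gabrb1 at 97.6, 88.9 and 99.1 and Gabrd at 63.9, 69.1 and 83.8. Above background were 5, 2 and 2 of the 16 in cells 1, 2 and 3, where 7.04%, 5.72% and 11.3% of all genes were. Gabrb1 alone had the order of cells of Calb1 and Calb2, as did 13.9% of all genes. No subunit had that of Gad1 and Reln, as 11.5% of all genes did. With 16 genes these counts are too small to set apart from these shares. Gabra3 read high in cells 1 and 2 and near the bottom in cell 3 (99.4, 99.2 and 4.78), and Gabra2 read high in cell 1 alone (98.7, 3.31 and 1.14). Gabrp (4.65, 47.2 and 40.5) had the lowest mean.

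Neuropeptide precursors, which interneurons often release beside GABA, had median percentiles of 53.8, 63.9 and 62.5 over 27 measured genes. Scg2 (92.4, 97.7 and 98.5), the enkephalin precursor Penk (98.5, 93.4 and 83.2) and Cck (99.8, 99.4 and 74.7) led the list, and Ucn (20.5, 7.95 and 41.4) and Grp (6.98, 2.61 and 3.46) closed it. Vip, Tac3 and Nts, 3 of the 27, shared the order of cells of Gad1 and Reln, as did 11.5% of all genes.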
